A study of Oryza sativa Indica Group with 17 samples.

Results

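The dwarf line d1 carries a deletion of RGA1 in the indica rice variety IR64. Total leaf DNA of d1 was hybridized to 1 array, as was DNA of unmutated IR64, the wild type check. These are 2 of the 17 arrays of the series, chosen by their sample labels, and the other 15 mutant lines are used here only for side by side values. Both plants were grown in a greenhouse for 45 days, and DNA was extracted from leaves with CTAB and purified on a cesium chloride gradient. Line d1 is the genotype "IR64 mutant d1", advanced by selfing to the M4 or M5 generation before extraction; the check is the genotype "IR64 wildtype" with no mutagen. The mutagen of d1 is not settled, since the sample labels give DEB (diepoxybutane) and the methods give gamma rays. Among the lines set beside d1 below, G650, G282, G6485, G7534, G9799 and G6989 are gamma ray lines and F2045 is a fast neutron line. D256 and D1137 are DEB lines, and all of these lines are of IR64. By the methods G650, G9799, D1137 and F2045 are spl1 lesion mimic mutants, G9799 and F2045 without genetic confirmation. Each line is 1 array, so no value has a replicate and no difference between d1 and the check was tested. A change in d1 and a difference between the 2 hybridizations cannot be told apart.

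RGA1 codes for the alpha part of the heterotrimeric G protein, a membrane-bound switch that binds GTP and, together with beta and gamma subunits, passes signals from outside the cell. Rice plants without it are dwarfed, with broad dark leaves and small round grains, and respond weakly to gibberellin and to brassinosteroid. Leaf cells hold the nuclear genome and also the genomes of plastids and mitochondria, which are present in many copies per cell, and how much of these the purified DNA kept was not measured here. On an array of this kind a gene is represented by a probe set, a group of short probes, and DNA that is missing from the sample lowers the signal of every probe that matches it.

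For each probe set and array the value used is a share, the part of its perfect match probes flagged as low against wild type, from 0 (no probe) to 1 (all probes). Most sets hold 11 probes, and in 57008 of the 57194 sets every value lay within 0.001 of a multiple of 1/11. Sets with a share of at least 0.5 are named called. The share does not separate DNA that is absent from DNA present in fewer copies or with another sequence.

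The PCR primers designed for RGA1, on chromosome 5, are shown because they mark the locus that defines the line. They are the forward and the reverse primer of the study, printed 5′ to 3′ in lower case with nothing marked.
GPA1-1F: ttgtatgatgtaggaggccagagg
GPA1-1R: ttacaagtttctggtctagggccg

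RGA1 (LOC4338448) had a share of 0.909 in d1, against 0 in the wild type check. Over the other 15 lines its lowest share was 0, its median 0 and its highest 0.364, in G6989. Only d1 reached the threshold at the gene that defines the line.

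In d1, 371 of the 57194 probe sets were called, 0.649% (interval 0.585 to 0.718%, 95% exact Clopper-Pearson), against 11, or 0.0192% (0.0096 to 0.0344%), in the wild type check. These intervals and those below cover counting error only, and neighbouring probe sets can share target DNA. The calls of d1 were a small part of the array, but more than in most of the lines. Over the other mutant lines the lowest number of calls was 8, the median 54 and the highest 1461. The median share of the sets called in d1 was 0.727, though the call rule keeps it at 0.5 or more. In d1 19 sets had every probe flagged, whereas the highest share of any set in the check was 0.556. Below the threshold the order was the other way round, because the mean share over all sets was 0.0295 in d1 and 0.0745 in the check, and 78.3% of the sets were at 0 in d1 against 44.5% in the check. The share of d1 exceeded that of the check in 6566 sets, was below it in 26640 and equalled it in 23988. A gap of 0.5 or more was reached by 260 sets with d1 above and by 8 with the check above. On either side of the threshold, 62 sets of d1 had shares from 0.4 to under 0.5 and 75 had shares from 0.5 to under 0.6. In rounded elevenths the counts of d1 declined to 60 sets at 5, and came to 75 at 6, 82 at 7 and 93 at 8 before declining again. The check had 79 sets at 5, 11 at 6 and 0 above that.

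**Figure D1:**
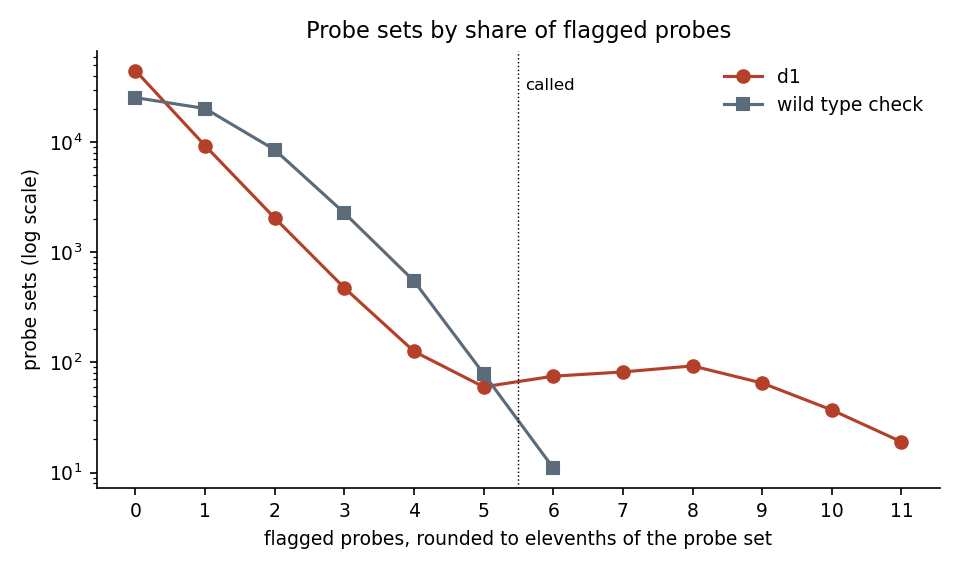
Number of probe sets (log scale) by flagged probes, rounded to elevenths of the set, in d1 (circles) and the wild type check (squares); sets right of the dotted line were called, and counts of 0 are not drawn. The check ends at 6 elevenths with 11 sets, whereas d1 has a second rise with 93 sets at 8 elevenths.

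Of the 11 sets called in the check 8 had a share of 0 in d1. OsAffx.32347.1.S1_x_at was called in both arrays, with 0.545 in each. Os.26748.1.S1_x_at had 0.455 in d1 and 0.545 in the check. Of the 11 sets, 3 are paired with 1 gene, LOC4350004 with 0 in d1 and 0.545 in the check, LOC4338090 with 0 and 0.545, and LOC4336693 with 0.0909 and 0.545.

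Probe set names on this array fall into classes. Names that begin with Os. were built from transcript clusters, and names that begin with OsAffx from predicted genes and other genomic sequence. A set ending in _at is meant to match a single transcript, one in _a_at transcripts of the same gene, one in _s_at several similar transcripts, and one in _x_at holds probes that also match unrelated sequence. In every one of these classes d1 had more calls than the check. Among OsAffx sets 299 of 25500 were called in d1, 1.17% (interval 1.04 to 1.31%), against 4, or 0.0157%, in the check. Among Os. sets 72 of 31694 were called in d1, 0.227% (0.178 to 0.286%), against 7, or 0.0221%, in the check. The class with the highest called percentage in d1 was OsAffx _x_at, with 93 of 3498 sets or 2.66% in d1 (2.15 to 3.25%), against 2 sets or 0.0572% in the check. OsAffx _s_at followed with 25 of 1267 sets or 1.97% in d1 and 0 sets in the check, an interval that reaches 0.291%. Plain OsAffx _at sets gave 181 of 20735 or 0.873% in d1, against 2 in the check. Among Os. sets, 10 of 1546 _s_at sets (0.647%) and 19 of 3658 _x_at sets (0.519%) were called in d1, against 1 and 2 in the check. Of the plain Os. _at sets, 40 of 25083 or 0.159% were called in d1, against 4 in the check. The remaining class, Os. _a_at, had 3 calls of 1407 in d1 and 0 in the check. Thus in both kinds of name the called percentage of d1 was higher for sets ending in _s_at and _x_at than for plain _at sets. This held in G650 too, with 0.449% of OsAffx _at, 1.18% of _s_at and 2.4% of _x_at sets called. Its Os. sets gave 0.167%, 1.03% and 0.547% in the same order. In G282 only _s_at sets were above plain _at sets. The G282 values in this order were 1.3%, 2.21% and 1% for OsAffx and 2.16%, 2.52% and 1.37% for Os. names. Together _x_at sets made up 30.2% of the calls of d1 and 12.5% of the array, and _s_at sets 9.43% of the calls and 4.92% of the array. Pairing with a gene went the other way. Of the sets paired with exactly 1 gene 0.0981% were called in d1, against 0.0134% in the check, and of the sets paired with none 1% were called in d1, against 0.0231% in the check.

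**Figure D2:**
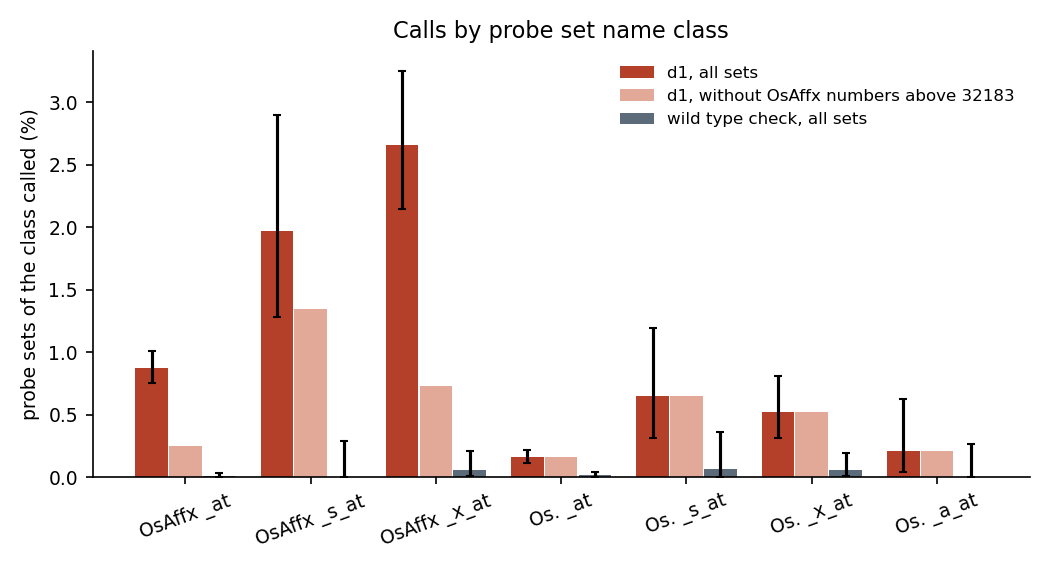
Percentage of the probe sets of each name class that were called in d1 (dark red), in d1 after leaving out OsAffx names with numbers above 32183 (light red) and in the wild type check (grey); whiskers are 95% exact Clopper-Pearson intervals, which the light bars lack. The OsAffx _x_at class has 2.66% in d1 with all sets and 0.731% without those numbers.

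The sets with the largest gap between d1 and the check in each class show the same shares in single members. Os.49675.1.S1_at, the set of the protein kinase gene CIPK18, and Os.53929.1.S1_at, paired with LOC4338442, had a share of 1 in d1 and 0 in the check, and both belong to the run around RGA1. Os.26455.2.S1_s_at had 1 in d1 and 0 in the check, with 1 in G650 and 0.909 in G282 beside it. Os.8502.7.S1_x_at, paired with no gene, had 1 in d1 and 0.182 in the check, while no other line exceeded 0.0909. This set therefore stood alone in d1 at the level of single arrays. OsAffx.26050.28.S1_s_at had 0.909 in d1 and 0 in the check, with a highest value of 0.364 elsewhere, in D256. Of the Os. _a_at sets, Os.15221.1.S1_a_at, paired with several genes, and Os.37936.2.S1_a_at had 0.909 each in d1 and 0.0909 each in the check. Of the 9 leading OsAffx sets of the 3 endings, 7 had numbers in their names from 32210 to 32333.

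The calls of d1 were concentrated at the end of the OsAffx numbering. OsAffx names carry a running number. Of 401 such numbers paired with a nuclear gene, 71.8% of successive pairs lay on the same chromosome. How far apart the genes of such a pair lie was not measured. The highest number paired with a gene of chromosome 12, the last chromosome, is 32183. The sets with higher numbers, from 32184 to 32350, were examined after their values had been seen, so what follows is a description. They are 262 sets, 0.458% of the array, and 206 of them, 78.6% (interval 73.2 to 83.4%), were called in d1, against 1 set, 0.382% (0.00966 to 2.11%), in the check. These 206 sets made up 55.5% of all calls of d1 and 68.9% of its OsAffx calls. The median share of the 262 sets was 0.636 in d1 (quartiles 0.545 and 0.818) and 0.0909 in the check (quartiles 0 and 0.182). The share was higher in d1 in 241 sets, lower in 7 and equal in 14. Of the 56 sets not called in d1, 32 had a share from 0.3 to under 0.5 and 10 had a share of 0.

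Outside these numbers 165 of 56932 sets were called in d1, 0.29%, against 10, or 0.0176%, in the check. The OsAffx excess over Os. sets was then smaller. Among the remaining OsAffx sets 93 of 25238 were called in d1, 0.368%, against 3 in the check, and the OsAffx part of the calls came to 56.4% with 44.3% of the sets, where it was 80.6% of the calls with all sets. By ending, the d1 percentage was 0.731% of OsAffx _x_at sets, 1.35% of OsAffx _s_at sets and 0.248% of OsAffx _at sets after this exclusion. The order of the _s_at and _x_at classes of OsAffx names was turned round by it.

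By ending, the calls of d1 in the last numbers were 130 of 172 _at sets (75.6%), 68 of 80 _x_at sets (85%) and 8 of 10 _s_at sets (80%). The sets also differ from other OsAffx names in a letter of the name that stands before the last digit. The letter A stood in 51.1% of the last names, against 4.82% of the other OsAffx names. Of 106 numbers with at least 1 set of each letter, A and S, sets of both letters were called in d1 for 76 numbers, sets of 1 letter for 21 and none for 9. In d1 110 of the 134 sets with A and 96 of the 128 sets with S were called, 82.1% and 75%. Only 1 of the 262 sets, OsAffx.32229.1.S1_x_at, is paired with 1 gene, LOC4324621 on chromosome 1. That set had a share of 0.818 in d1 and 0.0909 in the check, while the other set of the same gene, Os.7240.2.S1_a_at, had 0 in both arrays. The 2 sets of LOC4324621 thus disagree in d1, and what the other sets with these numbers match is not given in the tables used here.

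The last numbers were called in a few other lines as well, to differing extents. All lines were set against the same wild type, so the values of the lines are given side by side without a measure of their likeness. Of the 262 sets 148 were called in G650 (56.5%, median share 0.636), where 0.477% of the whole array was called. In G282 74 were called (28.2%, median 0.273), against 1.73% of the array. F2045 had 41 (15.6%, median 0.182), against 0.192% of the array, and G7534 had 29 (11.1%, median 0.273), against 0.157%. In each of the other 11 lines at most 10 sets were called. Line d1, with 206 sets, had the most. The lines with the most calls on the whole array were not those with the most calls here, since G6989 had 1461 calls in all (2.55%) and 10 here, and D1137 824 in all (1.44%) and 1 here.

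Along the numbers the lines differed in where their shares were high. All numbers were divided by whether the mean share of their sets was higher in G650 or in G282, with no use of d1, which gave 12 successive stretches, 6 higher in G650 and 6 higher in G282. Another 4 numbers with 5 sets had equal means and were in no stretch. The values of those 2 lines chose the stretches and are no finding, and the last numbers as a whole were picked out for their calls in d1. In the 151 sets of the stretches higher in G650 the median share was 0.636 in d1, 0.818 in G650, 0.182 in G282 and 0.0909 in the check. In the 106 sets of the stretches higher in G282 the median share was 0.636 in d1, 0 in G650, 0.545 in G282 and 0.0909 in the check. In d1 126 of the 151 sets and 80 of the 106 sets were called. The stretch with the most numbers ran from 32189 to 32241, with 69 of 80 sets called in d1, and the next from 32288 to 32307, with 31 of 38. Stretches with no call in d1 were the single numbers 32184, with 1 set, and 32287, with 2 sets. Among lines that did not set the stretches, F2045 had 2 calls among the 151 sets and 39 among the 106, with medians of 0.0909 and 0.455. G7534 had 24 and 5, with medians of 0.273 and 0.182, and D256, with 0.0297% of its array called, had 0 and 5. G6485 had 7 and 0, and G9799 had 0 and 6. G6989 had 5 in each kind of stretch, with medians of 0.0909 and 0.182. No further mutant line had more than 2 calls in either kind. The check had 0 and 1.

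**Figure D3:**
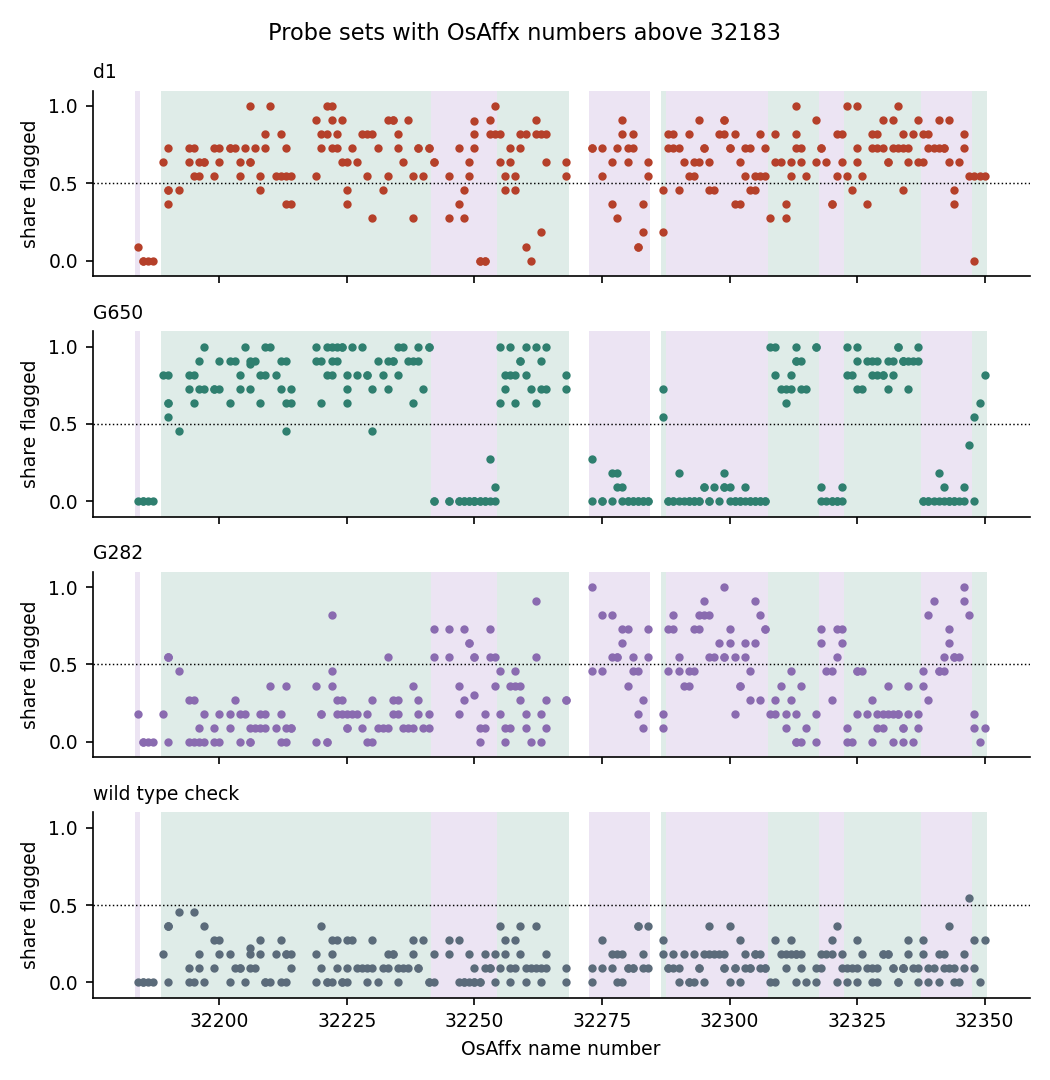
Share of flagged probes of each of the 262 probe sets with OsAffx numbers above 32183, against the number, in d1, G650, G282 and the wild type check; the dotted line is the call threshold of 0.5, and the shading spans stretches of numbers whose mean share is higher in G650 (green) or in G282 (violet). In d1 the medians are 0.636 in both kinds of stretch, in G650 they are 0.818 and 0.

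Line d1 was also high in the only probe sets paired with genes of the organelles, 1 for each of 2 genes. The mitochondrial gene cob encodes apocytochrome b of the respiratory chain, and its set, OsAffx.22951.1.S1_s_at, had 0.818 in d1, 0.727 in G282, 0.545 in F2045, 0.455 in D256, 0 in G650 and 0 in the check. The plastid gene atpI encodes a membrane subunit of the chloroplast ATP synthase, and its set, OsAffx.22955.1.S1_x_at, had 0.636 in d1, 0.818 in G650, 0.364 in G282, 0.0909 in F2045, 0 in D256 and 0.0909 in the check. In d1 both sets were called, in G650 only that of atpI and in G282 only that of cob. Neither set has a number among the last ones, and whether those belong to an organelle was not tested. A further set, OsAffx.22955.2.S1_s_at, has the number of the atpI set but is paired with no gene. Its share was 0.818 in d1, 0.909 in G650, 0 in G282 and 0.0909 in the check.

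In bins of 500 consecutive numbers, 114 of 181 bins had no call in d1, 65 had from 1 to 9 calls, and 2 had more. The first of these bins, OsAffx numbers 32000 to 32499, holds the last numbers, with 209 calls. The second was Os. numbers 26500 to 26999, where 21 of 462 sets or 4.55% were called in d1, against 1 in the check. In the same bin 27 sets were called in G650 and 13 in G282, so d1 did not have the most. The median share of these 21 sets was 0.818 in d1, 0.182 in the check, 0.818 in G650 and 0.273 in G282. Next came OsAffx numbers 27000 to 27499 with 9 of 475 sets called in d1, 6 in G650, 9 in G282 and 0 in the check. Among numbers with several sets, OsAffx.26050 had 6 of 9 sets called in d1, with shares from 0.545 to 0.909, OsAffx.24369 had 5 of 8 and OsAffx.19953 4 of 6. None of these sets was called in the check. For Os.26688, 3 of 3 sets were called in d1, with shares from 0.727 to 0.818 in d1 and from 0.0909 to 0.182 in the check. Over the sets called in d1, the G650 median was 0.818 for Os.26688, 0.727 for OsAffx.26050 and 0 for OsAffx.24369 and OsAffx.19953. The G282 median was 0.182 for Os.26688 and OsAffx.26050, 0.455 for OsAffx.24369 and 0.591 for OsAffx.19953. Sets that share a number are built from related sequence and are not separate pieces of evidence.

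Only 22 of the 371 called sets are paired with exactly 1 gene, 2 are paired with several and 347, or 93.5%, with none. Of the 22, 20 lie on the 12 chromosomes, against 3 of the sets called in the check. Chromosome 5 held 8 called sets of 1859 in d1 (0.43%) and 1 in the check. The run around RGA1 took 6 of those 8. Chromosome 2 held 6 called sets of 2609 in d1 (0.23%) and 0 in the check, and chromosome 10 held 2 of 1167 in d1 (0.171%) and 0 in the check. Chromosomes 1, 4, 7 and 9 had 1 called set each in d1, with 1 in the check on chromosome 4 and 0 on the others. Chromosomes 3, 6, 8, 11 and 12 had none in d1, and chromosome 11 had 1 in the check. Outside the run, 14 sets or 0.0624% of the placed nuclear sets were called in d1. Counts this small do not rank the chromosomes. The mean share per chromosome lay between 0.0287 and 0.0383 in d1 and between 0.0792 and 0.0868 in the check, so that on each chromosome the check was higher.

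**Figure D4:**
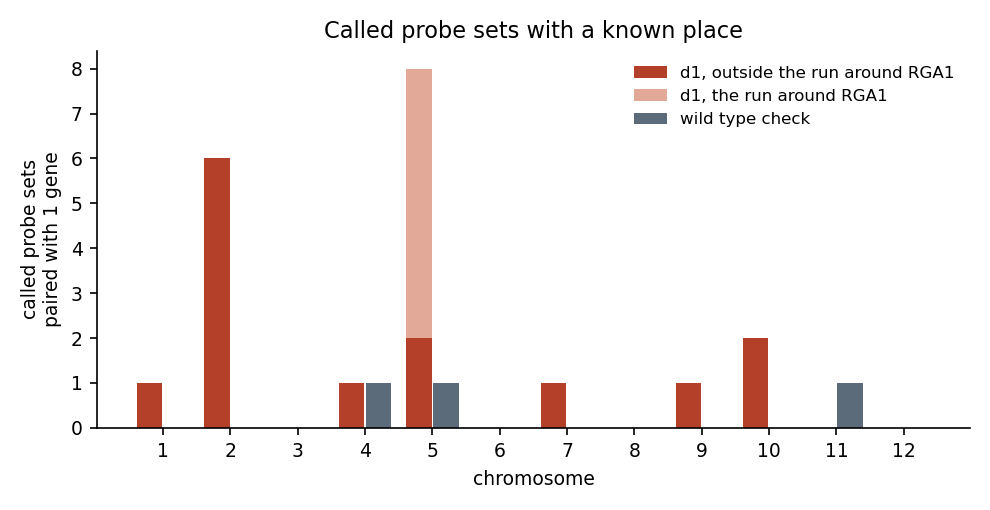
Number of called probe sets paired with exactly 1 gene on each of the 12 chromosomes, in d1 (dark red outside the run around RGA1, light red inside it) and in the wild type check (grey). Chromosome 2 has 6 called sets in d1, all outside the run, and chromosome 5 has 8, of which 6 are in the run.

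The 6 called sets of chromosome 2 belong to 6 genes. LOC4328285 had 1 set, with 0.818 in d1 and 0.182 in the check. The other 5 genes have further sets, and in each of them at least 1 further set was below the threshold in d1. For LOC4328532 the sets had 0.727 and 0.364 in d1, against 0.0909 and 0.182 in the check. For LOC4328273 they had 0.727 and 0 in d1, against 0.182 and 0.0909 in the check. For LOC4328788 the sets had 0.6 and 0.0909 in d1, against 0.1 and 0 in the check, and for LOC4329131 0.545 and 0.273 in d1, against 0.0909 in both sets of the check. LOC4331035 had 1 of 6 sets called, with 0.5 in d1 and 0.1 in the check. With the median over sets, 2 of these 6 genes were called. Outside chromosome 2 the same disagreement held for LOC4338430 on chromosome 5, with 0.545 and 0.0909 in d1 against 0.182 in both sets of the check, and for LOC4348707 on chromosome 10, where 1 of 3 sets was called, with 0.545 in d1 and 0.273 in the check. The called set of LOC4348707 was also called in 8 other lines.

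At the level of genes, 13 of 17903 measured nuclear genes (0.0726%) were called in d1 and 1 (0.00559%) in the check. Of the 13 genes, 7 lie outside the run, on 6 chromosomes, and no function is given for them in the tables used here. The share of LOC4339433 on chromosome 5 was 0.727 in d1 and 0 in the check, the widest gap of the 7. LOC4342716 on chromosome 7 had 0.727 in d1 and 0.182 in the check, and LOC107278854 on chromosome 9 had 0.727 in d1 and 0.273 in the check. LOC4337198 on chromosome 4 had 0.636 in d1 and 0.182 in the check, and LOC4349131 on chromosome 10, the 1 gene of the 7 with an OsAffx set, had 0.636 in d1 and 0.0909 in the check. LOC4328285 and LOC4328532 of chromosome 2 had 0.818 and 0.545 in d1, against 0.182 and 0.136 in the check. When the share of the check was subtracted first, LOC107278854, LOC4337198 and LOC4328532 were no longer called.

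The 7 genes had high shares in other lines too, and all lines share the wild type they were set against. LOC4328285 had 0.909 in G282 and 0.818 in G650 with a median of 0 over the 15 lines, and LOC4328532 had 0.682 in G282 and 0.591 in G650, likewise with a median of 0. LOC4339433 had 0.818 in G282 and 0.545 in G650 with a median of 0.0909. LOC4337198 had the same 2 values in these lines with a median of 0.182. LOC4342716 had 0.727 in G282 and 0.182 in G650, LOC107278854 0.818 in G650 and 0.364 in G282, and LOC4349131 0.545 in G282, 0.545 in F2045 and 0 in G650. Medians over the 15 lines lay from 0 to 0.182 both for these 7 genes and for the genes of the run. Each of the 7 genes was called in at least 1 other line, whereas RGA1, LOC4338442, LOC9271122 and LOC9269781 were called in none. LOC4338442 had 1 in d1 and at most 0.364 in the other 15 lines, LOC9271122 had 0.545 in d1 and at most 0.273, and LOC9269781 had 0.545 in d1 and at most 0.182. LOC4338446 (0.727 in d1) reached 0.636 in D1137, and CIPK18 (1 in d1) reached 0.636 in G6989.

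The neighbours of the 7 genes were not called. Of the 28 nearest measured neighbours, 2 on each side, 0 were called in d1, where 0.0726% of all nuclear genes were called. At that percentage a group of this size holds few calls or none, so the 0 does not set these neighbours apart. The highest share among the 28 was 0.182 in d1 and 0.364 in the check. A share of 0 was found in 18 of the 28 in d1 (64.3%, against 70.7% of all nuclear genes in d1) and in 11 of the 28 in the check (39.3%, against 36.3% of all nuclear genes in the check). All 4 neighbours of LOC4328532 and of LOC4337198 were at 0 in d1. Around LOC4339433 all 4 neighbours were above 0 in d1, with shares of 0.0909, 0.182, 0.182 and 0.182, against 0, 0.182, 0 and 0.182 in the check. Single called sets give another picture at 2 places. LOC4328273, with 1 of its 2 sets at 0.727 in d1, lies 4 measured genes from LOC4328285, and the highest share of those 4 genes in d1 was 0.0909. That set of LOC4328273 also had 0.727 in G650 and 0.636 in G282. LOC4338430, with 1 of its 2 sets at 0.545 in d1, lies directly beside LOC4338442, an end gene of the run. That set of LOC4338430 was higher in 2 other lines, with 0.727 in G650 and 0.909 in G282, and had 0.182 in the check. Neither place was therefore particular to d1. Outside the run, the other genes of chromosomes 2, 5 and 10 with a called set had at least 145 measured genes between them and the nearest such gene. The 347 called sets paired with no gene have no place here, so whether any of them lie between these genes is not known.

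**Figure D5:**
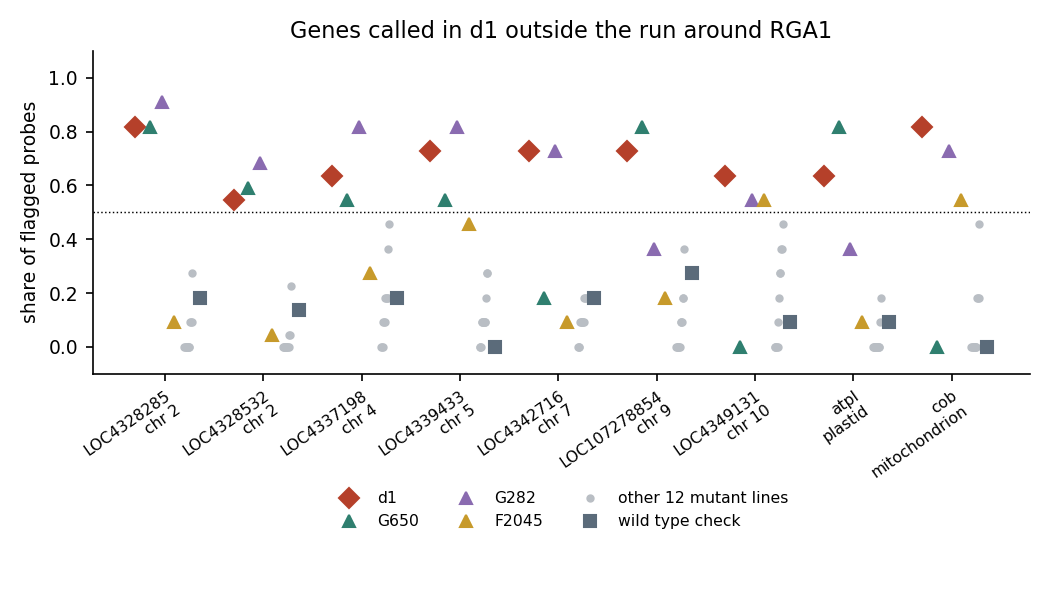
Share of flagged probes of the 7 nuclear genes called in d1 outside the run around RGA1 and of atpI and cob, in d1 (red diamonds), G650, G282 and F2045 (triangles), the other 12 mutant lines (small grey circles) and the wild type check (grey squares); the dotted line is the threshold of 0.5. The triangles are the lines in which at least 1 of the 9 genes was called, so the other 12 lines lie below the threshold by this choice. The check also lies below it in each of the 9 genes.

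Further gene lists are given as counts, to be read beside the 0.0726% of all nuclear genes called in d1, at which lists of this size hold few calls or none. Of the subunits of the G protein 3 of 6 were measured, RGA1 with 0.909 in d1 and 0 in the check, RGB1 (the beta subunit) with 0.182 in both arrays, and RGG1 (a gamma subunit) with 0 in both. Of 16 gene names of gibberellin synthesis and response 9 genes were measured, with 0 called and 7 at a share of 0 in d1, against 0 called and 4 at 0 in the check. The highest of them in d1 was KAO, which encodes ent-kaurenoic acid oxidase of gibberellin synthesis, with 0.182 in d1 and 0.0909 in the check. Of 12 brassinosteroid gene names 7 were measured, with 0 called and 6 at 0 in d1 and 2 at 0 in the check. The kinase gene GSK2 had the highest share in d1, 0.0909, with 0.0909 in the check. Of 9 names of strigolactone and other dwarf genes 3 genes were measured, D3, D14 and D17, all at 0 in d1 and at 0.0909, 0.182 and 0.0909 in the check. Among 24 measured CIPK genes, which encode kinases that act with calcium sensor proteins, CIPK18 had a share of 1 in d1 and 0 in the check, and the next highest was CIPK12 with 0.182 in d1 and 0.136 in the check. Beside these counts, 12650 of the 17903 nuclear genes were at 0 in d1 and 6498 in the check.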

How the data were processed

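The authors averaged 2 scans of each array, read the probe signals with affy in R (named without a version in the submitters' processing notes), scaled the perfect match probes to the mean of wild type with no background correction, took the log2 ratio to wild type per probe and flagged low probes. The deposited value is the fraction of flagged probes per probe set. The log ratio behind these fractions is not stated with them, and probe signals were not analysed here. Signal over background is therefore unknown, and a share has the precision of about 11 probes. By the labels every array, the check among them, was set against the check, which leaves the check's own reference unclear.

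Shares were analysed as deposited with Python 3.11.15, numpy 2.4.6, pandas 2.3.3 and scipy 1.17.1, and called at 0.5 or more. Sets paired with exactly 1 gene were placed by the gene order of the ASM3414082v1 assembly; genes took the median over sets. The code that counts calls and finds runs was checked on 20 simulated arrays with planted calls, which does not test the calls of d1. Named genes follow a rule: RGA1, nuclear genes called outside the run with 2 neighbours on each side, organelle genes, genes paired with a called set, sets called in the check, the 3 sets of each class with the largest gap, and list members from a share of 0.3. Members and lists were chosen with earlier results of these data known. List members below 0.3, the last OsAffx numbers, the bins, families and stretches were named after their values were seen. The planned count of calls common to d1 and other lines is not reported, because all lines share their wild type. Alternatives were thresholds of 0.4 and 0.6, subtraction of the check or of the array median, sets called in the check or in 4 or more other lines left out, sets of multiples of 1/11 only, the highest share per gene and plain _at sets only.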

Additional observations from a re-analysis of the deposited data

How the results depend on the processing

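The 371 calls of d1 became 433 at a threshold of 0.4, 296 at 0.6 and 260 after subtracting the check, and 165 without the OsAffx numbers above 32183, an exclusion chosen after seeing the data that also lowered the OsAffx part from 80.6% to 56.4%. The 206 calls in those numbers became 224, 170 and 143 under the first 3 settings. The 20 called sets on chromosomes became 13 after subtracting the check. The 7 genes called outside the 6 run genes became 11 at a threshold of 0.4, where the 7 were kept and LOC4324621, LOC4329131, LOC4334083 and LOC4352029 were added, and 14 with the highest share over the sets of a gene, where LOC4338430 also joined the run. They became 4 after subtracting the check. With plain _at sets only the count was 9, though the list changed. Then 5 of the 7 genes were kept, LOC107278854 and LOC4328285 were lost and 4 others were added. RGA1 has no plain _at set. At 0.6 and after subtracting the check LOC9269781, the gene next to RGA1 in the run, was below the threshold, with 4 and 5 of the 6 run genes still called. In all, 26 alternative values stayed within 1.5 times the reported count or inside its interval, some of those above among them, and 6 did not. No paired analysis was possible because there is a single array of d1 and of the check, and no replicate could be left out.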
